A study of Homo sapiens with 2 samples.

Results

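Translation initiation and elongation factors are the proteins that load ribosomes onto mRNA and drive peptide chain extension, and their genes are examined here as mRNA targets of the RNA-binding protein IGF2BP3 (insulin-like growth factor 2 mRNA-binding protein 3). The members were all protein-coding genes of GENCODE release 44 whose symbol begins with EIF or EEF followed by a digit, which gave 71 of 20046 protein-coding genes. The peaks taken were those that overlapped an exon of a member by at least 1 bp, 165 of the 21142 peaks listed for replicate 1 and 144 of the 20799 listed for replicate 2. The study mapped IGF2BP3 binding by LACE-seq (linear amplification of cDNA ends and sequencing) in OE-19, an established cell line from adenocarcinoma of the esophagogastric junction, grown without any treatment named in the labels. Cells were crosslinked with ultraviolet light, IGF2BP3 was immunoprecipitated with its RNA, and cDNA of the bound fragments was sequenced. Both samples belong to 1 group, so the design holds no comparison of conditions, and no input or IgG library was used here. The labels do not say whether the 2 replicates came from separate cultures.

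Initiation begins when eIF2 brings the initiator tRNA to the small ribosomal subunit, which eIF3, eIF1, eIF1A and eIF5 help to assemble and to position on the start codon. The eIF4F complex, made of the cap-binding protein eIF4E, the scaffold eIF4G and the helicase eIF4A, recruits that subunit to capped mRNA, and 4E-binding proteins compete with eIF4G for eIF4E. In elongation, eEF1A delivers aminoacyl-tRNA, the eEF1B subunits recharge eEF1A, and eEF2 moves the ribosome by a codon. IGF2BP3 is known as a reader of m6A, a methylated adenosine for which the study names GGAC as the core motif. The sites that the study located in CDC25A were of the wider RRACH form, so a stretch without GGAC may still hold a site.

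Of the 71 genes, 53 (74.6%) carried an exonic peak in replicate 1 and 51 (71.8%) in replicate 2. Among all protein-coding genes the shares were 37.3% and 39%. A peak in both lists was found for 48 factor genes (67.6%) against 31.6% of all protein-coding genes, and an overlapping pair of peaks, 1 from each list, for 40 (56.3%) against 28%. Such pairs were more frequent in other genes of the translation apparatus. They were found in 55 of 79 ribosomal protein genes (69.6%) and in 15 of 20 cytosolic aminoacyl-tRNA synthetase genes (75.0%). How much RNA each gene yields in OE-19 was not measured in these files, and its part in these shares was not tested.

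Coding sites that recurred between the lists are given as reference sequence for 6 genes, each the strongest pair of its gene with both summits inside the same coding exon, because the values that follow turn on them. Each is the stretch within 60 nt of the replicate 1 summit, clipped to the coding exon, from hg38 on the strand of the gene, and capitals mark GGAC.
EIF4G3 chr1:20807398-20807500 (minus strand): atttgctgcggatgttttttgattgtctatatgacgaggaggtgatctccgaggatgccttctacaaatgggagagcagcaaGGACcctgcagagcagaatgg
EIF2S2 chr20:34089734-34089854 (minus strand): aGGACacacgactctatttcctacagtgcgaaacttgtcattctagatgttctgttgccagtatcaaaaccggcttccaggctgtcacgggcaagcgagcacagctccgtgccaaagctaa
EIF6 chr20:35284407-35284487 (minus strand): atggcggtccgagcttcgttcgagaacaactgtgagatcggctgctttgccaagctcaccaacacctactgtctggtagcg
EIF3A chr10:119042371-119042491 (minus strand): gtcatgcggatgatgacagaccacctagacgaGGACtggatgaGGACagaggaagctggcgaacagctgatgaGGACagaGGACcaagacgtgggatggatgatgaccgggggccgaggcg
EIF4G1 chr3:184325480-184325553 (plus strand): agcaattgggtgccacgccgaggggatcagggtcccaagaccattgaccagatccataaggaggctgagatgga
EEF2 chr19:3977506-3977610 (minus strand): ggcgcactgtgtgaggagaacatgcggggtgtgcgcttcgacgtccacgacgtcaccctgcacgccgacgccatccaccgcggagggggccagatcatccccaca
The EIF3A stretch held 4 copies of GGAC, the EIF4G3 and EIF2S2 stretches 1 each, and those of EIF6, EIF4G1 and EEF2 none.

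EIF4G3, which encodes a paralogue of the eIF4G scaffold, carried more peaks than any other factor gene. It had 20 peaks in replicate 1 and 21 in replicate 2, which formed 19 overlapping pairs, and ranked 5th and 3rd by number of peaks among the 20046 protein-coding genes. The peaks lay on 20 and 22 of the 37 exons of its Ensembl canonical transcript, 19 of them in both lists, and covered 53.9% and 53.2% of its 6397 nt. The paralogue EIF4G1 had 5 and 4 peaks covering 26.5% and 25% of its transcript, and EIF4G2 had 4 and 4 peaks covering 38.9% and 22.8%. Of these EIF4G3 peaks, 0 and 1 touched more than 1 exon of that transcript, as did 22 of the 165 and 15 of the 144 peaks of all factor genes. EIF4G1, with 33 exons, had peaks on 7 and 4 of them. The part of exon number in the peak counts was not tested.

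The fold enrichment of a peak, as the peak caller gives it, is the read pileup at the summit over a local background, each with 1 added. EIF4G3 peaks of replicate 1 had folds between 5.86 and 16.2 around a median of 9.83. Those of replicate 2 had folds between 6.90 and 20.04 around a median of 9.27. EIF4G1 peaks had medians of 6.29 and 6.58, and EIF4G2 peaks of 3.92 and 4.34. The medians of EIF4G3 stood above those of both paralogues in each list. The pileups at EIF4G3 summits were not deep, with medians of 23.5 and 23 reads, and the local background was low, with medians of 2.04 and 1.23 reads. EIF4G2 had medians of 77 and 54.5 reads over a background of 21.8 and 11.8. The strongest EIF4G3 pairs were that of the last exon shown above, at 15.8-fold and 18.1-fold with summits 1 bp apart, and that of an internal exon at 16.2-fold and 15.2-fold.

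**Figure D1:**
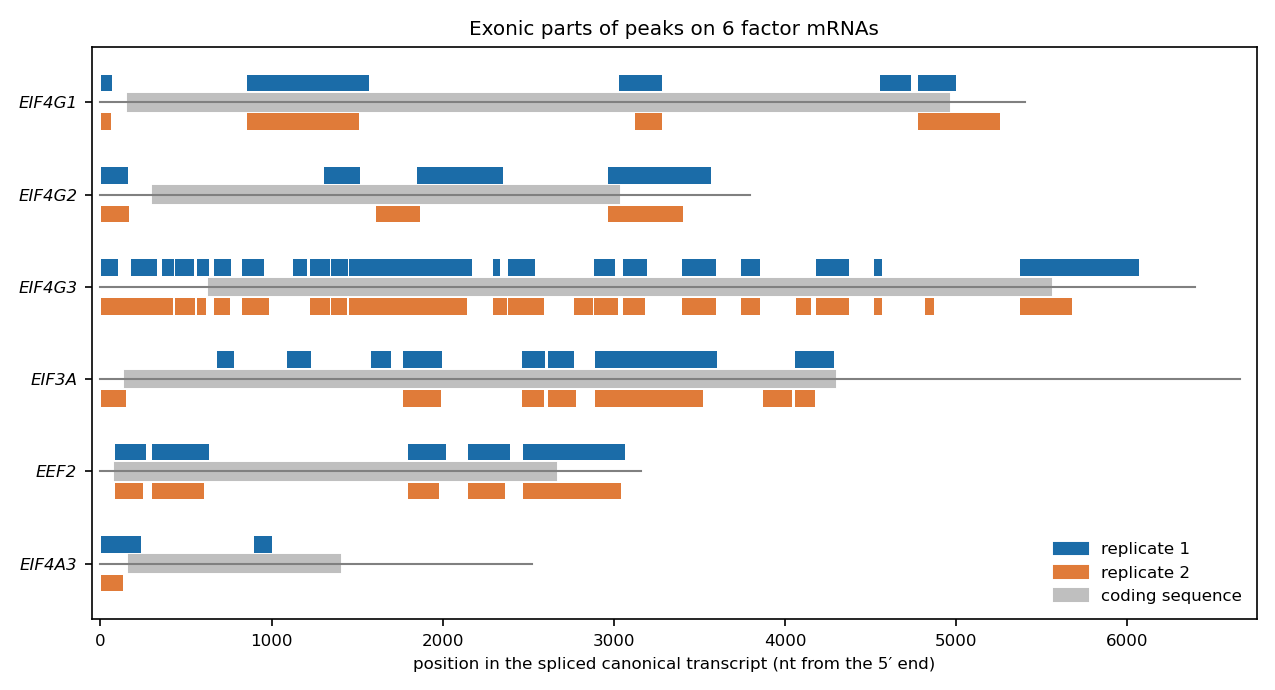
Exonic parts of the peaks of replicate 1 (blue, above) and replicate 2 (orange, below) along the spliced canonical transcripts of 6 factor genes, in nt from the 5′ end, with the coding sequence as a grey bar. EIF4G3 is covered over 53.9% and 53.2% of its length in many separate stretches. EIF4A3 is covered over 13.5% and 5.27%, at its 5′ end in both replicates and also at nt 896 to 999 in replicate 1.

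**Figure D2:**
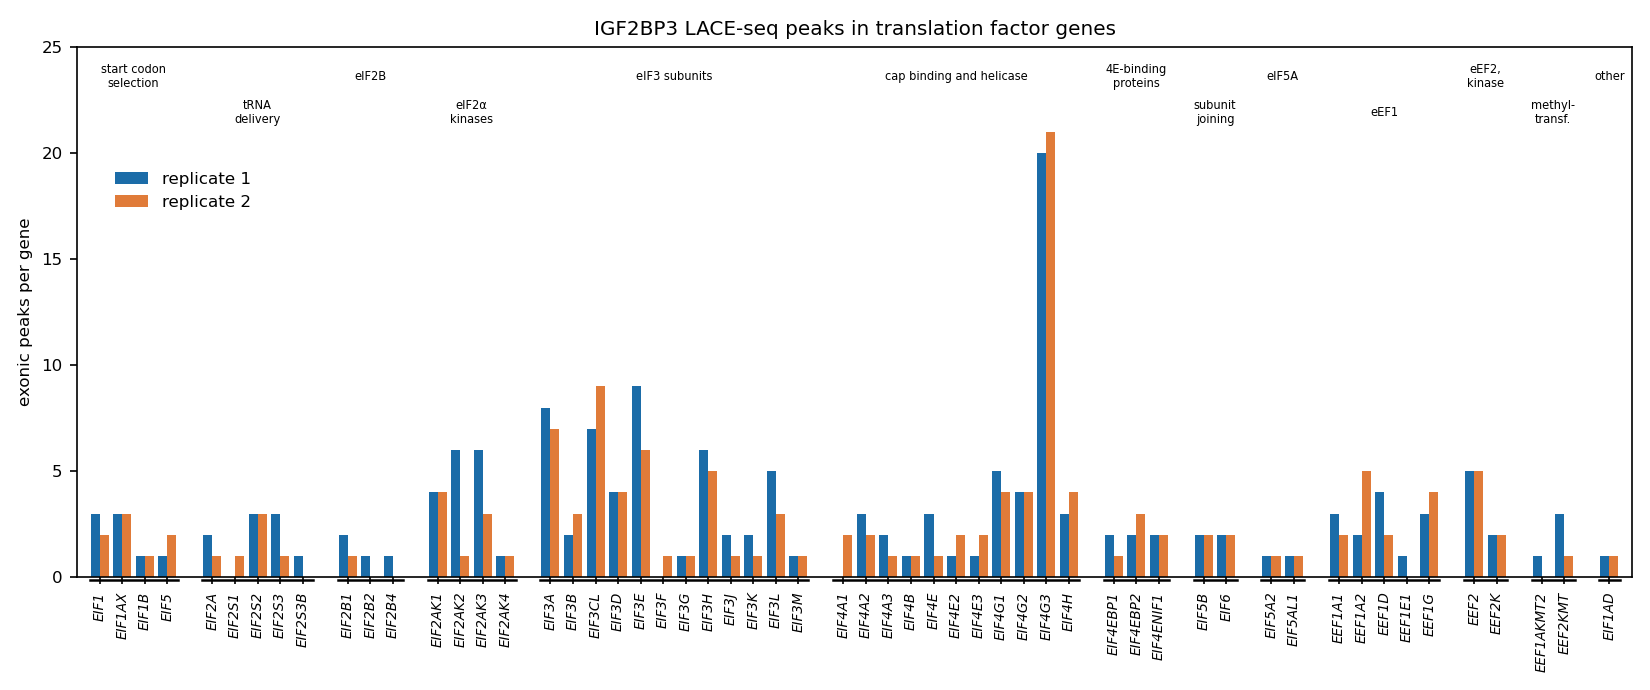
Number of exonic peaks per gene in replicate 1 (blue) and replicate 2 (orange) for the 56 factor genes with a peak in either list, grouped by role. EIF4G3 stands at 20 and 21, and no other gene has more than 9.

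Among the other cap-binding and helicase genes, EIF4A3, which encodes the DEAD-box helicase of the exon junction complex, held the strongest pair of all factor genes, on its first exon at 19.9-fold and 17.5-fold with 59 and 51 reads. Both of these peaks also lay over an annotated gene without a symbol, and the replicate 2 summit lay outside the annotated bounds of EIF4A3. Of the 31-nt words under the pair, 75.6% and 68.9% occur once in hg38. EIF4A1 and EIF4A2 encode the helicase of eIF4F. EIF4A1 had no peak in replicate 1 and 2 in replicate 2, at 5.41-fold and 4.99-fold. EIF4A2 had 3 and 2 peaks, the highest at 8.65-fold and 10.96-fold. EIF4E had 3 peaks in replicate 1 and 1 in replicate 2, and its overlapping pair lay in the 3′ UTR at 9.0-fold and 8.35-fold, with 32 and 13 reads, where 28.7% and 31.8% of the 31-nt words occur once in hg38. EIF4H, whose product stimulates eIF4A, had 3 and 4 peaks, with the highest at 8.99-fold and 8.36-fold. EIF4B, another cofactor of eIF4A, had 1 peak in each list, and they did not overlap. Of the group of 12 genes, 10 had a peak in both lists and 7 an overlapping pair. Among all 71 factor genes these were 48 and 40, and among all protein-coding genes 31.6% and 28%.

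Several peaks of this group also covered small RNA genes that lie within the host gene. The EIF4A2 pair at 8.65-fold and 10.96-fold lay over MIR1248, SNORA63B and SNORA81, and its other pair over SNORA4 and SNORA63. Both EIF4A1 peaks overlapped a small nucleolar RNA, SNORA48 and SNORD10, and the EIF4G1 pair shown above overlapped SNORD66. Small RNA genes lay under 5 of the 165 factor gene peaks of replicate 1 and under 8 of the 144 of replicate 2. These shares were 3.03% (1.30 to 6.90) and 5.56% (2.84 to 10.6), beside 0.816% and 1.04% of all exonic peaks of protein-coding genes. In such peaks, reads of the small RNA and of the host mRNA cannot be told apart.

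The eIF3 complex is the scaffold that binds the small ribosomal subunit. Of its 14 genes, 11 had a peak in both lists and 10 an overlapping pair, against 31.6% and 28% of all protein-coding genes. EIF3A, the largest subunit, had 8 and 7 peaks forming 5 pairs, with medians of 9.05-fold and 9.35-fold. The EIF3A pair shown above, in a coding exon of 779 nt, reached 9.29-fold and 8.46-fold with 51 and 48 reads, and its summits coincided. EIF3E had 9 and 6 peaks and EIF3H 6 and 5, each forming 5 pairs. The strongest pair of EIF3E lay on the first exon at 15.8-fold and 17.0-fold, and that of EIF3H also on the first exon at 14.5-fold and 19.5-fold. EIF3I had no peak in either list, and EIF3F had a single peak, in replicate 2, on its first exon at 15.1-fold.

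EIF3C and EIF3CL are near-identical genes for the same subunit. All peaks were listed on EIF3CL, 7 in replicate 1 and 9 in replicate 2 forming 6 pairs, and none on EIF3C. Of the 31-nt words in their exons, 99.3% for EIF3C and 99.2% for EIF3CL occur 2 to 10 times in hg38. Binding to the transcripts of the one or the other cannot be told apart. Over all factor genes, at least 90% of the 31-nt words occurred once under 112 of the 165 peaks of replicate 1 and 103 of the 144 of replicate 2, while under 18 and 17 peaks it was less than 50%. The latter lay on EEF1A1, EEF2KMT, EIF1AX, EIF3CL, EIF4E, EIF4H and EIF5AL1 in both lists, and on EIF2S3 and EIF4B in replicate 1. Within such peaks, the words that occur more than once do not tell the gene from its copies.

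The genes that deliver the initiator tRNA differed among themselves. EIF2S2, the beta subunit of eIF2, had 3 peaks in each list and all 3 formed pairs. Its strongest pair lay at the first exon, with summits just upstream of the annotated gene start, at 15.3-fold and 19.6-fold, and the coding pair shown above stood at 11.8-fold and 12.3-fold with 80 and 61 reads. EIF2S1, the alpha subunit whose phosphorylation lowers initiation, had no peak in replicate 1 and 1 in replicate 2, at 7.89-fold with 12 reads, and that peak also lay over ATP6V1D. EIF2S3, the gamma subunit, had 3 and 1 peaks. The 4 kinases that phosphorylate eIF2 alpha all had a peak in both lists, and 2 of them, EIF2AK1 and EIF2AK3, had an overlapping pair. Among all 71 factor genes these were 48 and 40, and among all protein-coding genes 31.6% and 28%. EIF2AK1 had 4 peaks in each list, of which the strongest pair stood at 13.5-fold and 9.12-fold. EIF2AK2 had 6 peaks in replicate 1, 4 of them in the 3′ UTR, and 1 in replicate 2 that overlapped none of them. Of the 5 genes of eIF2B, the exchange factor that recharges eIF2, only EIF2B1 had a peak in both lists, in the 3′ UTR at 11.3-fold and 9.56-fold. Over all protein-coding genes, 31.6% had a peak in both lists.

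Among the genes of start codon selection, EIF1AX had 3 peaks in each list and a first-exon pair at 11.7-fold and 17.8-fold. EIF1 had a pair in the 3′ UTR at 7.53-fold and 8.91-fold, with 116 and 98 reads. EIF6, which keeps the large ribosomal subunit from joining too early, had 2 peaks in each list, and the pair that holds its start codon reached 11.3-fold and 10.4-fold with coinciding summits. Of the 4E-binding proteins, EIF4EBP2 had a pair in the 5′ UTR at 13.0-fold and 18.3-fold, and EIF4EBP1 a pair in the 3′ UTR at 6.24-fold and 7.11-fold, with 12 and 13 reads. EIF1AD had 1 peak in each list, a pair in the 3′ UTR at 8.49-fold and 7.16-fold.

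EEF2, the translocation factor, gave the deepest pileups among the factor genes, up to 189 and 178 reads. It had 5 peaks in each list, all of them paired. Their fold enrichment was low, between 3.67 and 6.15 for the first replicate and between 3.20 and 5.66 for the other, while the median pileup was 142 reads in both lists over a background of 29.9 and 30.6 reads. The pair shown above stood at 4.02-fold and 3.95-fold with 140 and 142 reads. EEF1A1 had 3 and 2 peaks, with the strongest pair at 8.41-fold and 9.72-fold and 71 and 67 reads, where 36.9% and 38.05% of the 31-nt words occur once. EEF1G, a subunit of the exchange factor for eEF1A, had 3 and 4 peaks and 3 pairs, the strongest at 11.3-fold and 14.5-fold, and all 3 also lay in a gene annotated across EEF1G without a symbol. Of the 31-nt words in EEF1G exons, 19.2% occur once in hg38. EEF2K, the kinase that inhibits eEF2, had a single pair, in the 3′ UTR at 8.52-fold and 6.62-fold. EEF2KMT, a methyltransferase of eEF2, had 3 peaks in replicate 1 and 1 in replicate 2, all of which also lay over the neighbouring gene ALG1. EIF5A2, a paralogue of EIF5A, had a pair in the 3′ UTR at 6.49-fold and 8.37-fold.

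Most factor gene peaks recurred in the other list. Of 165 peaks listed for replicate 1, 102 (61.8%, 95% Wilson interval 54.2 to 68.9) overlapped a peak of replicate 2, against 61.9% of all exonic peaks of protein-coding genes. Of 144 peaks listed for replicate 2, 70.1% (62.2 to 77.0) overlapped a peak of replicate 1, against 61.5%, which lay just below the interval. Without EIF4G3 the shares were 57.2% (49.1 to 65) and 67.5% (58.8 to 75.1), and both intervals included the share of all exonic peaks. Overlapping peaks were the stronger ones, with median folds of 8.02 and 8.35 against 6.66 and 6.80 for those without a partner. The 103 pairs came from 40 genes, 19 of them from EIF4G3, and their summits lay a median of 28 bp apart. The median fold of all factor peaks was 7.17 in replicate 1 and 7.77 in replicate 2, beside 6.82 and 7.11 for all exonic peaks. Without EIF4G3 it was 6.82 and 7.20. Such intervals cover counting error only.

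**Figure D3:**
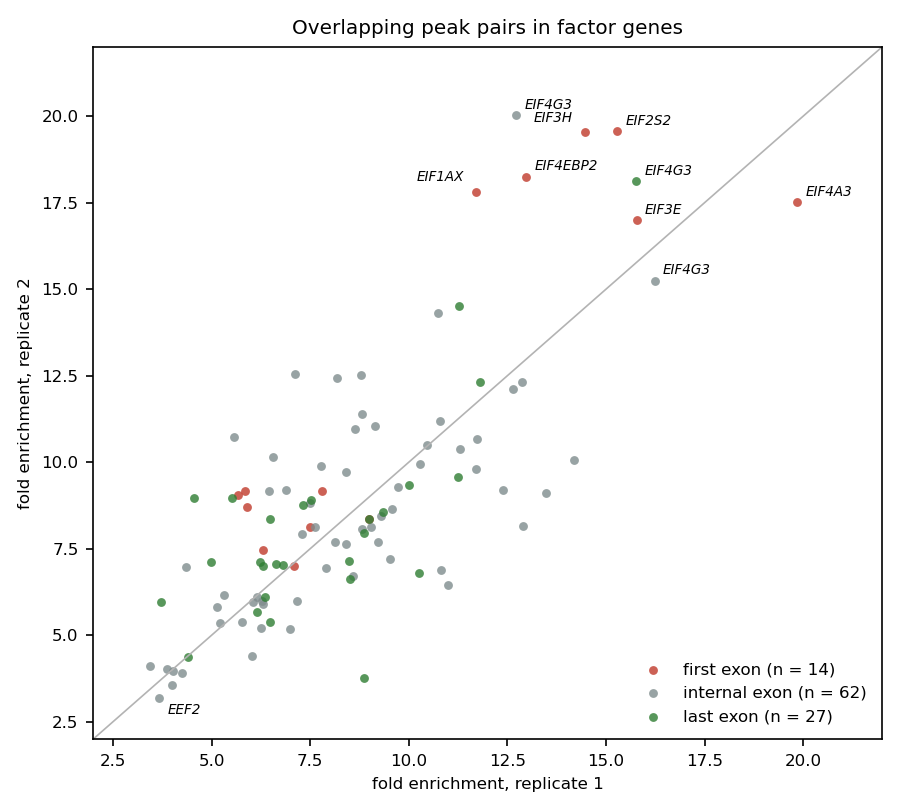
Fold enrichment in replicate 1 and replicate 2 of the 103 overlapping peak pairs of factor genes, coloured by the exon of the canonical transcript that the replicate 1 peak touches. The strongest pairs are those of EIF4A3 at 19.9-fold and 17.5-fold, EIF3E, EIF4G3 and EIF2S2, and those of EEF2 lie at the low end.

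Of the 10 pairs that ranked highest by the lower of their percentiles within the lists, 6 lay on a first exon. Of the 13 factor pairs above the 90th percentile in both lists these were again 6, beside 33.9% of 747 such pairs over all protein-coding genes, and first exons held 14 of the 103 factor pairs (13.6%) and 14.1% of all pairs. For replicate 1 first exons carried 10.3% of factor peaks, for replicate 2 17.4%, and 10.4% and 19.4% of all exonic peaks. Of the 28 factor genes with a first-exon peak, 14 had it in both lists, 3 in replicate 1 and 11 in replicate 2 alone. The latter included the strong peaks of EIF3A at 15-fold, EIF3B at 15.3-fold and EIF3F at 15.1-fold. The larger share at first exons in replicate 2 was thus also present over all genes.

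Internal exons held most factor peaks, 61.8% and 56.9% in the lists of replicates 1 and 2, beside 46.9% and 43.0% of all exonic peaks. Last exons held 26.1% and 22.9%, beside 38.8% and 33.5%. By the position of the summit, 35.2% (28.3 to 42.7) and 29.2% (22.4 to 37.1) of factor peaks lay in coding sequence, beside 35.1% and 35.2% of all exonic peaks. In the 3′ UTR lay 15.2% (10.5 to 21.4) and 15.3% (10.3 to 22), beside 25.9% and 20.5%, and in the 5′ UTR 6.67% (3.76 to 11.5) and 11.1% (6.96 to 17.3), beside 7.88% and 14.0%. Coding sequence makes up 26.2% of the annotated exonic bases of the factor genes and the 3′ UTR 30.2%. These base shares leave out introns, whereas the peak shares also count peaks with the summit in an intron or outside the gene. Among factor peaks with the summit in an exon, the mean shares over both lists were 51.8% coding and 24.5% 3′ UTR. The interval for the 3′ UTR lay below the share of all exonic peaks in replicate 1 and included it in replicate 2.

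A further 34.5% and 31.9% of factor peaks had their summit in an intron and reached into an exon. Of these 57 and 46 summits, 56 and 44 lay on the upstream side of the exon as transcribed, at a median of 55 and 48.5 nt from its edge. Over all protein-coding genes, 95.3% and 94.4% of intronic summits of exonic peaks lay upstream, at medians of 51 and 49 nt. Intronic summits of these lists thus tended to stand upstream of the exon that the peak reaches, and shares by summit depend on how many summits are intronic. When each peak was classed by where most of its exonic bases lay, 63.0% and 59.7% of factor peaks were coding, an alternative chosen after seeing the data. The same share over all exonic peaks was not computed, so these values show no preference of factor genes. In EIF4G3, 13 of 20 and 16 of 21 summits were intronic, while 18 and 21 of its peaks had most exonic bases in coding sequence. Why these summits lay in introns was not tested.

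The sequence GGAC was searched on the strand of the gene in the window reaching 50 nt to either side of each summit. It was found in 27.9% (21.6 to 35.2) of factor peak windows in replicate 1 and 29.9% (22.99 to 37.8) in replicate 2, beside 29.4% and 32.5% of the windows of all exonic peaks. The longer TGGAC, which contains GGAC, was found in 7.27% and 8.33%, beside 10.1% in both lists. Both intervals for GGAC included the share of all exonic peaks. EIF4G3 had GGAC in 4 of its windows in each list. With the window moved 50 nt downstream, an alternative chosen after seeing the data, the mean share over both lists was 33.03% rather than 28.9%. The moved window was searched for factor peaks only.

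EIF5A, the factor that relieves stalled ribosomes, and EEF1B2, a subunit of the exchange factor for eEF1A, had no exonic peak in either list, although processed copies of both did. Processed pseudogenes are intronless copies of an mRNA in the genome. The annotation lists 155 pseudogenes named for factor genes, of which 49 carried a peak in replicate 1, 39 in replicate 2 and 32 in both. Of the 146 annotated as processed, 47 (32.2%) carried a peak in replicate 1, 38 (26.03%) in replicate 2 and 31 (21.2%) in both, against 10.7%, 8.45% and 7.05% of all 10660 processed pseudogenes. How strongly the parent genes are transcribed was not measured here, and its part in these shares was not tested. For EEF1A1, 14 and 12 of its 49 pseudogenes carried peaks, 19 and 14 peaks in all against 3 and 2 on EEF1A1 itself. EEF1B2P3 had a peak at 16.9-fold and 15.03-fold with 59 and 37 reads, and EIF5AP4 one at 11.7-fold and 11.9-fold with 77 and 63 reads. EIF4A1P10 had a peak at 11.8-fold and 12.7-fold with 46 and 49 reads, where EIF4A1 had none in replicate 1. Of the 29 genes with annotated pseudogenes, 18 had a peak on a copy. Their pseudogenes number from 1 to 49 per gene, and the same count over all genes with pseudogenes was not made.

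Most pseudogene peaks covered sequence that in the parent gene is split by introns. All 56 peaks in replicate 1 and 42 of 43 in replicate 2 aligned to the mRNA of the parent, at a median identity of 95.9% and 95.5%. Of those, 55 (98.2%) and 38 (90.5%) spanned at least 1 exon junction of the parent. The aligned stretches had median lengths of 414 and 370.5 nt, and the median exon of EEF1A1 has 207.5 nt. Spanning a junction thus depends on peak width, and the share for other stretches of these copies was not computed. The peak on EIF4HP1 in replicate 1 ran from nt 3 to nt 2375 of the EIF4H mRNA, across 6 of its junctions. The following stretches are 60 nt of parent coding sequence found letter for letter under a peak on the copy in both lists, with the last 30 nt of 1 parent exon in lower case and the first 30 nt of the next in capitals. They are shown because a read across the join matches the copy without a gap and the parent gene only across an intron.
EEF1B2 exons 2 and 3, in EEF1B2P3 chrX:24788837-24788896 (minus strand): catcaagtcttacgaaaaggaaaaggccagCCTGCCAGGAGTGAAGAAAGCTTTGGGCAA
EIF5A exons 2 and 3, in EIF5AP4 chr10:80247489-80247548 (minus strand): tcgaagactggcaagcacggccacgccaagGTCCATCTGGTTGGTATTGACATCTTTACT
EIF4A1 exons 9 and 10, in EIF4A1P10 chrX:92113436-92113495 (minus strand): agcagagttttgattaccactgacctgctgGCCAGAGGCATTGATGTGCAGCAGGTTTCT
EEF1A1 exons 4 and 5, in EEF1A1P6 chr7:22511350-22511409 (minus strand): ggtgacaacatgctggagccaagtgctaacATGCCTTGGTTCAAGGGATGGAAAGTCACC
The EEF1A1 stretch was also found under peaks on EEF1A1P5 and EEF1A1P10 in both lists, and on EEF1A1P11 in replicate 1. Whether the reads under these peaks came from the parent mRNA or from a transcribed copy cannot be told apart in these files. A count of 0 peaks on EIF5A, EEF1B2 or EIF3C is therefore a statement on where peaks were listed and not on whether the mRNA was bound. The same limit holds for the low counts on EIF4B, EIF3F and EIF4A1. Their pseudogenes carried 4 and 3, 2 and 1, and 6 and 4 peaks in replicates 1 and 2.

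**Figure D4:**
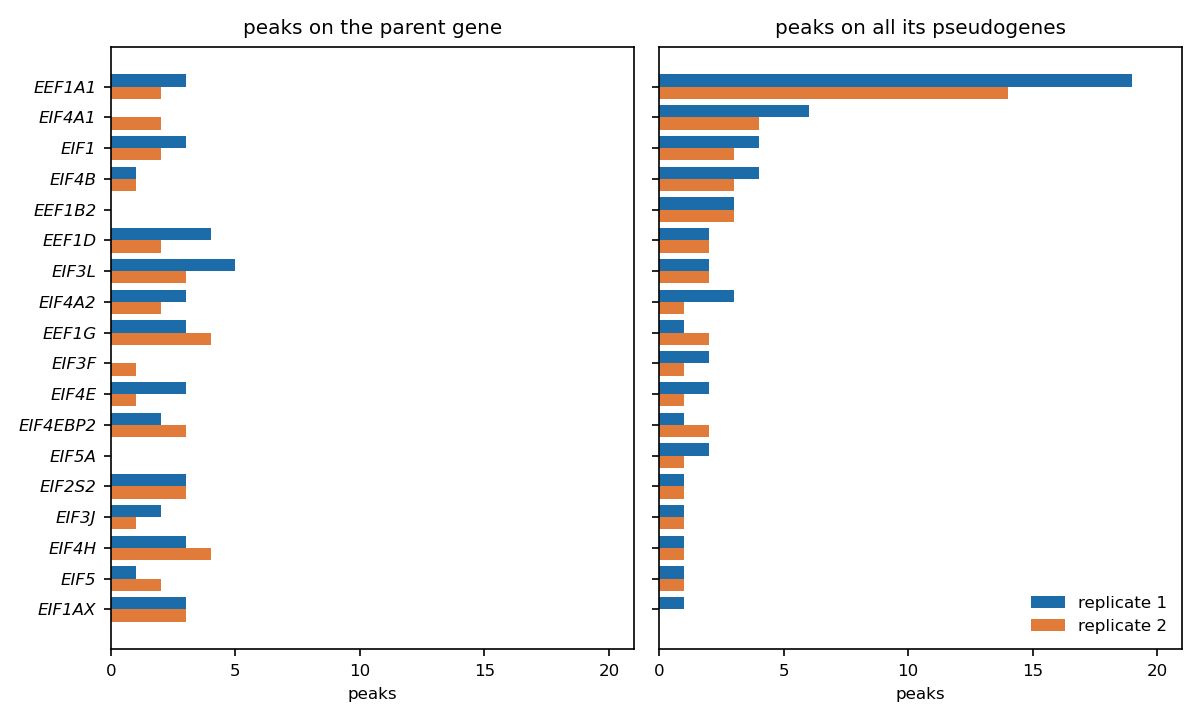
Number of peaks on the parent gene (left) and on all pseudogenes named for it (right) in replicate 1 (blue) and replicate 2 (orange), for the 18 factor genes with a peak on a pseudogene. EEF1A1 has 3 and 2 peaks itself and 19 and 14 on its pseudogenes, and EEF1B2 and EIF5A have none of their own.

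Of the remaining members, 8 genes had peaks in both lists that did not overlap, namely EIF2AK2, EIF2AK4, EIF3M, EIF4B, EIF4E2, EIF4E3, EIF5 and EIF5AL1. EEF1AKMT2, EEF1E1, EIF2B2, EIF2B4 and EIF2S3B had a peak in replicate 1 only, each with 1 peak. EIF2S1, EIF3F and EIF4A1 had peaks in replicate 2 only. The 15 genes without a peak in either list were EEF1AKMT1, EEF1AKMT3, EEF1AKMT4, the readthrough genes EEF1AKMT4-ECE2 and EEF1E1-BLOC1S5, EEF1B2, EIF1AY, EIF2B3, EIF2B5, EIF2D, EIF3C, EIF3I, EIF4E1B, EIF4EBP3 and EIF5A. The lowest pileup at a factor gene peak was 6 reads in replicate 1 and 7 in replicate 2, and binding below the threshold of the lists is not seen.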

How the data were processed

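LACE-seq peak lists of 2 replicates were analysed. The narrowPeak files deposited by the authors, 1 per replicate, give each peak's position, summit, fold enrichment over local background (a ratio), −log10 p and −log10 q, and no strand. The deposited score column is 10 times −log10 q, cut to whole numbers, and was not used. The submitters' processing notes list fastp, HISAT2, MACS2 and hg38, whereas the study's methods name Bowtie, allowing several positions per read, and Piranha. The files have the layout of MACS. Total reads per sample are not given in the sources used here.

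Exons came from GENCODE release 44, and a summit was classed by any annotated transcript. Summit pileups were solved from fold and −log10 p (Poisson, 1 added) for all 21142 and 20799 peaks, and are reads after the peak caller's extension, so the narrowest peaks are 293 and 294 bp wide. Shares carry 95% Wilson intervals. Pseudogene peaks were aligned to parent mRNA with blastn 2.17.0, and other steps used Python 3.11.15 and pandas 2.3.3, tested on simulated data. No test between groups was possible.

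The members, role groups and lists were chosen with earlier results of these data known. Genes named were EEF1A1, EEF2, EIF4G1, EIF4A1, EIF4E, EIF4EBP1, EIF3A, EIF2S1 and EIF5A whatever their values, the 10 members with most overlapping pairs, the member with the strongest pair in each role group (by the lower percentile of the pair within its list), members with a peak in 1 list or none, and near-identical copies; others were named after their values were seen. Of 10 factor genes listed as terminal oligopyrimidine mRNAs, 8 had a peak in both lists and 7 an overlapping pair. Among all 71 factor genes these were 48 and 40, and among all protein-coding genes 31.6% and 28%.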

Additional observations from a re-analysis of the deposited data

How the results depend on the processing

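The 48 factor genes with a peak in both lists became 40 when the peaks had to overlap, 47 at −log10 q of at least 5, 42 with the summit in an exon, 39 without peaks over another gene and 34 with peaks of single-copy sequence only. The share of peaks in the other list, 66.0% as the mean of both lists, was 59.8% when at least 50% of both peaks had to overlap, 44.2% for summits within 50 bp and 62.4% without EIF4G3. The median fold of factor peaks over that of all exonic peaks, 1.07, was 1.03 with the summit in an exon, 1.26 for −log10 q in place of fold and 1.01 without EIF4G3. The coding share by summit, 32.2%, was 51.8% with the summit in an exon, 61.4% by most exonic bases and 46.9% with summits moved 50 nt downstream. The 3′ UTR share, 15.2%, was 14.8% at −log10 q of at least 5, 17.3% without peaks over another gene, 24.5% with the summit in an exon, 15.4% on canonical transcripts, 17.1% by most exonic bases, 17.5% with summits moved and 17.6% without EIF4G3. The 5′ UTR share, 8.89%, was 14.3% with the summit in an exon and 4.97% on canonical transcripts. The GGAC share, 28.9%, was 31.9% with the summit in an exon, 74.5% in the whole peak, 52.3% within 100 nt of the summit, 33.03% with summits moved and 30.3% without EIF4G3. Pseudogenes with a peak, 32 in both lists, ranged from 39 to 49 with either replicate left out, since 1 list then decides. The settings by most exonic bases, with moved summits, without EIF4G3 and with single-copy sequence were chosen after seeing the data. Under the alternative settings, the shares by region and of GGAC were taken for factor peaks only. Other than by the construction of each setting, the cause was not tested.

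No paired analysis was possible because the series holds 1 group of 2 replicates. Leaving out a replicate gives no value for the overlap. With no library totals, depth limits cannot be set beyond the pileups, and binding below the threshold of the lists is not seen.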
